A study of Acipenser ruthenus with 15 samples.

Results

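The transcripts described here are those whose level was highest in section B, the second of 5 slices cut along the animal-vegetal axis of the egg in the sterlet, a sturgeon (Acipenser ruthenus). They were chosen by their measured values. A transcript was a member when its mean over the 15 libraries was at least 5 and below 600 CPM, when section B was the highest of the 5 sections in each of the 3 eggs, and when section B held at least 25% of the sum of the 5 section means. Levels are CPM, the usual count scale per library, after TMM scaling, which brings the libraries to a common size on the assumption that most transcripts do not differ. In all, 110 of 42878 transcripts met the rule, and 17167 transcripts lay in the range of mean CPM. That section B was highest in the members is therefore the choice itself, and its levels are given as a description.

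Each of 3 eggs, numbered 10, 18 and 20 and labelled as stage 1 oocytes, was frozen, sliced and divided into 5 segments. Section A lies at the animal pole and section E at the vegetal pole, so section B is the segment next to the animal one. Each segment gave 1 library of RNA depleted of ribosomal RNA, so n = 3 in each section. No treatment and no mutation is given for any egg, and whether 1 female or several laid the eggs is not given. The p-values thus hold for these 3 eggs only. Since the tests take the egg as a term, they measure section differences against their variation among these eggs, not against the spread of level between eggs. Library totals ran from 4347026 counts, in section C of egg 20, to 14500611, in section D of egg 18. A level is relative to the other RNA of the same slice, not an amount per slice, so more of a transcript and less of the rest cannot be told apart.

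As background, a fish or amphibian egg carries RNA made by the mother, and this RNA runs early development until the embryo's own genes start. Some of it is placed along the animal-vegetal axis. The animal side holds the nucleus and gives rise to much of the ectoderm, while the vegetal side holds most of the yolk and, in frogs, RNAs for endoderm and for the germ line. In frog eggs vegetal RNAs are known to be carried there during oocyte growth by dedicated transport routes. Section B samples the cytoplasm between the animal pole and the equator.

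The files list the transcripts by assembly ID, with no gene names. No ID matched the annotated sterlet genes used here (0 of 42878, against 80041 entries), so no member has a name, a role or a sequence in what follows. IDs are given without their common start, trinitytrinLoc. The start of an ID tells how the transcript was assembled, DN for de novo and GG for genome-guided. Of the members, 60 were DN and 50 were GG, so that 54.5% were DN, against 72.7% of the transcripts in the CPM range and 65.4% of all. They fell into 109 assembly components and 110 assembled genes, with only DN52572c0g1t1 and DN52572c0g2t2 in 1 component, so the members were nearly all separate assembled genes.

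With TMM scaling, peaks in the middle of the egg were few and those at its poles were many. The same rule applied to section A chose 1382 transcripts and to section E 1377, against 110 for section B, 60 for section C and 56 for section D. This order depends on the scaling. With the spike-in as scaling the rule chose 593 transcripts for section A, 1395 for B and 460 for E, and with the factor behind the authors' deposited normalized signal, the deposited factor, 692, 5421 and 192. With TMM, section B was the highest section in all 3 eggs for 337 transcripts of the CPM range (1.96%), and 227 of these lay under the share of 25%, from 21.1% upward with a median of 23.4%. Nearest to the limit on its inner side were GG_34608c1g2t1 at 25.03% and GG_73304c0g1t1 at 25.01%. Nearest on its outer side were GG_22817c4g1t1 at 24.97% and GG_21897c1g1t1 at 24.92%. GG_34608c1g2t1 stood at 14.9, 20.3 and 17.1 CPM in section B of eggs 10, 18 and 20, and GG_21897c1g1t1, outside the set, at 35.2, 31.5 and 33.5 CPM. The limit divides a continuous run of values.

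The members had a shallow peak with a long slope toward the vegetal pole. Their median share was 22.0% in section A, 26.5% in section B, 19.3% in section C, 16.7% in section D and 15.1% in section E, where an even level would give 20% in each. Over all transcripts in the CPM range the median share in section B was 20.0%. The member with the sharpest peak held 33.9% in section B, and 10 of 110 held at least 30%, while 37 held under 26%. Section B stood at 1.33 to 2.05 times the mean of the other 4 sections, with a median of 1.44. Set against single sections, the median ratio was 1.21 to section A, 1.38 to section C, 1.58 to section D and 1.76 to section E. Thus the neighbour on the animal side was nearest in level and the vegetal pole farthest.

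**Figure D1:**
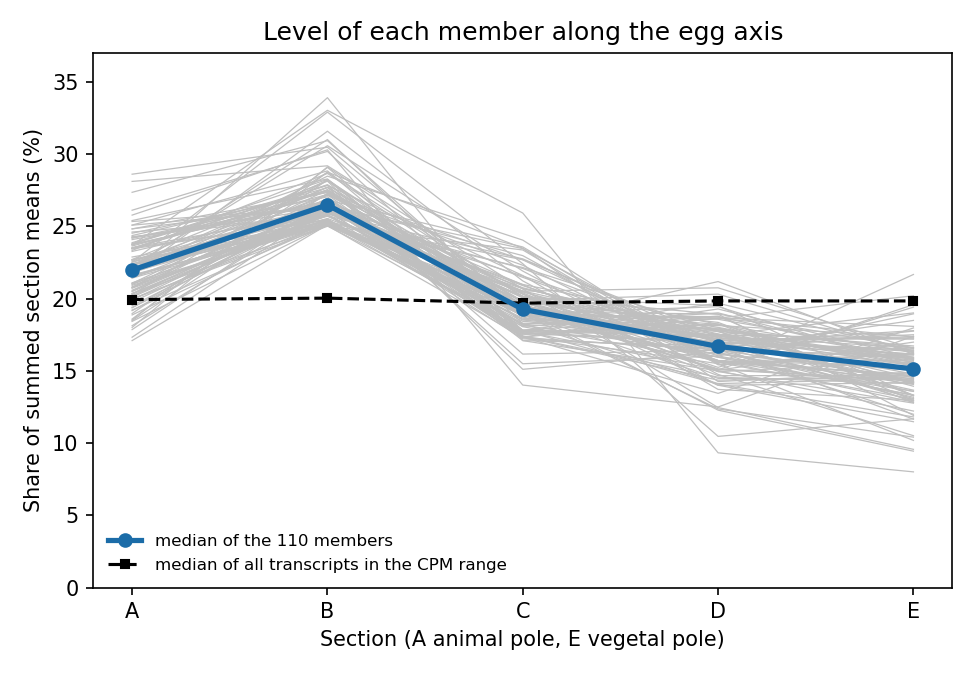
Share of the summed section means (y axis, in %) held by each section from the animal pole (A) to the vegetal pole (E). Grey lines are the 110 members, the blue line their median and the dashed line the median of all transcripts in the CPM range; the blue line runs from 22.0% in A over 26.5% in B to 15.1% in E.

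The members were of low to middle abundance. Their mean level had a median of 12.8 CPM, against 23.3 CPM over the CPM range, with 40 members under 10 CPM, 64 at 10 to 50 and 6 over 50. Of a library's counts they together held 0.226 ± 0.034% at the animal pole, section A (SD, n = 3), 0.285 ± 0.046% in section B, 0.209 ± 0.042% in section C, 0.165 ± 0.033% in section D and 0.143 ± 0.029% in section E. The lowest count of a member in section B was 65 in egg 10, 66 in egg 18 and 41 in egg 20, and no member had 0 counts in any library. Between eggs, the level in section B varied by a median of 19.5% (SD over mean), more than the 13.7% of all transcripts in the CPM range.

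DN46448c0g1t1 had the highest share in section B. It stood at 10.5, 7.71 and 17.2 CPM in section B of eggs 10, 18 and 20. In section A the same eggs gave 6.90, 5.15 and 10.7 CPM, in section C 6.39, 3.56 and 7.90, in section D 6.29, 3.68 and 5.71, and in section E 3.64, 2.28 and 6.85. Egg 20 was the highest and egg 18 the lowest in section B, so that the sections overlapped between eggs, but within each egg section B stood at 1.5 to 1.61 times the next section. It was the only member with a margin of at least 1.3 in all 3 eggs, and the next section was A in each.

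DN45112c0g2t1, the next in rank at 33.0%, had another form. It stood at 15.7, 7.38 and 14.0 CPM in section B and at 12.4, 3.28 and 13.4 CPM in section C. Sections D and E were far lower, at 5.35, 2.50 and 2.61 CPM and at 4.49, 1.99 and 2.50 CPM. Section A held 9.03, 6.12 and 11.4 CPM. In eggs 10 and 20 its level was thus high over sections A to C and stepped down between sections C and D. In egg 18 the step lay between sections B and C.

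The most abundant member, DN54679c0g2t3, had a mean of 126.7 CPM over the libraries. Section B held 206.0, 100.1 and 183.1 CPM and section A 166.8, 96.1 and 137.8. Section C held 187.1, 58.6 and 174.0 CPM, so sections B and C differed by little in eggs 10 and 20. Section B was 1.04 to 1.1 times the next section, and egg 18 lay below both other eggs in every section.

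**Figure D2:**
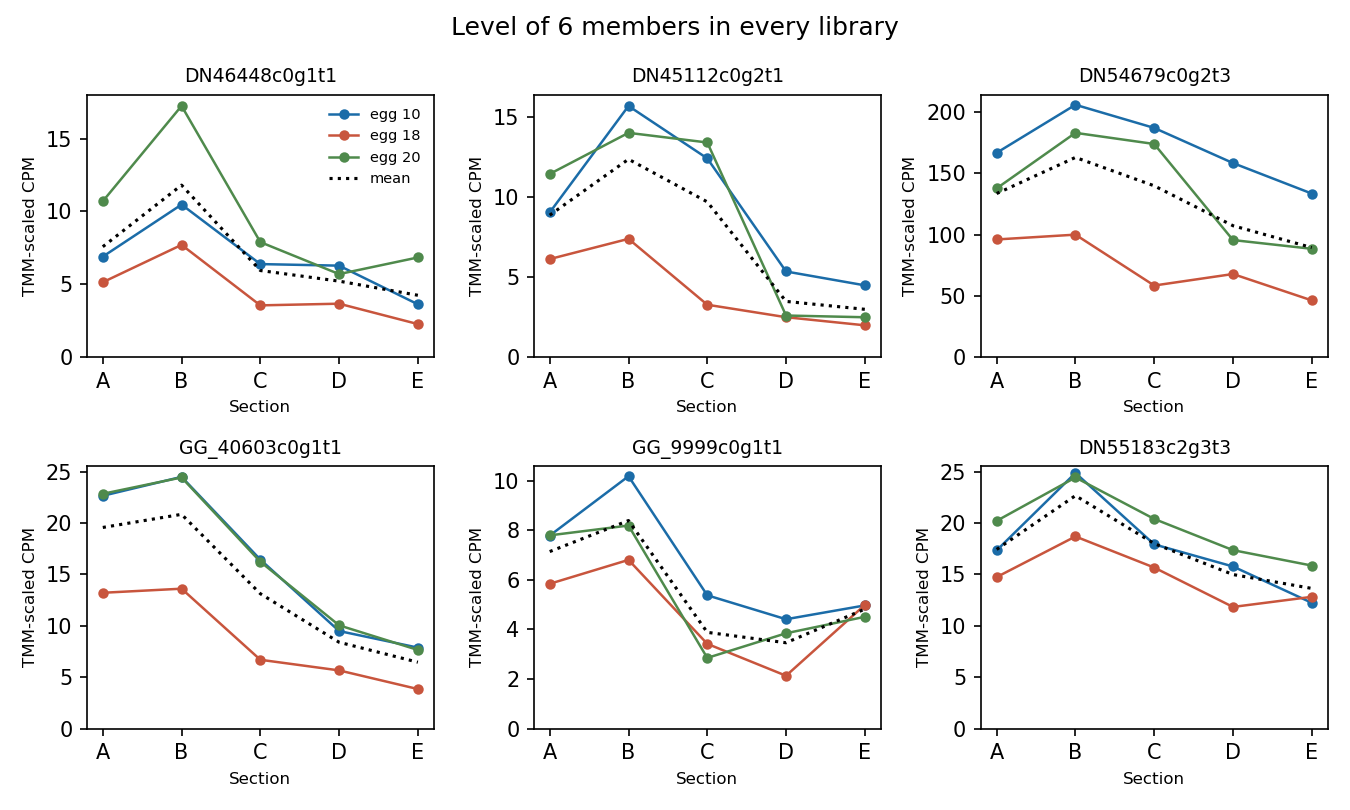
TMM-scaled CPM (y axis, from 0, with its own scale in each panel) by section for 6 members, 1 line per egg and a dotted line for the mean of 3 eggs. Section B is the highest point of each line, which the rule requires, and the line of egg 18 lies at or below the others in most sections.

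The margin by which section B led was small for most members. It was at least 1.1 times the next section in all 3 eggs for 19 of 110 members and at least 1.2 times for 3. These 3 were DN46448c0g1t1, DN42270c0g1t1 and GG_48638c0g1t1, the other two named after their values were seen. DN42270c0g1t1 stood at 11.0, 9.76 and 11.6 CPM in section B, above all of its 12 other libraries, which reached 9.52 CPM. GG_48638c0g1t1 stood at 13.6, 5.82 and 11.7 CPM in section B but at 10.4, 4.17 and 8.07 CPM in section A, and egg 18 was far below the other eggs. The 3 section B libraries lay above the 12 others for 8 members, against 34 of the 17167 transcripts in the CPM range (0.198%), a count that the choice of members favours and that is read no further. The other members owe their place to order within each egg rather than to levels that separate across eggs.

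The section next in rank by mean differed between members and often did not repeat in each egg. Section A was the second highest by mean for 85 members, and for 42 of these it was second in each egg. Section C was second by mean for 18 members, section D for 4 and section E for 3. It was second in each egg for 3 of the 18, and for 0 of those with section D or E. Section E was the lowest section for 85 members and section D for 21. In 86 members sections A and C both stood above sections D and E, and 74 members declined at every step from B over C and D to E.

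Among the 18 members with section C second, the median share was 19.9% in section A and 26.7% in section B. It was 22.7% in section C, 16.3% in D and 14.8% in E. Section C was second in each egg for 3 of them, DN55183c2g3t3, GG_83638c0g1t1 and DN45812c0g1t1, named after their values were seen. DN55183c2g3t3 stood at 24.9, 18.7 and 24.4 CPM in section B against 17.9, 15.7 and 20.4 in section C and 17.3, 14.7 and 20.2 in section A. Its sections A and C were nearly level in every egg, with section B at 1.19 to 1.39 times the next. Where section D or E was second by mean, the median shares were flatter outside section B, at 18.4% in A, 18.2% in C, 19.4% in D and 16.5% in E. None of these members had the same second section in each egg, so they are no settled shape.

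A measure that the rule did not use is the level in an egg that was left out of the choice. The rule was applied to 2 eggs, and the remaining egg was then read. With egg 10 left out, 257 transcripts were chosen, and 114 of them (44.4%) had section B highest in egg 10, against 17.1% of all transcripts in the CPM range. With egg 18 left out, it was 125 of 372 (33.6%, against 14.5%), and with egg 20 left out, 111 of 215 (51.6%, against 17.9%). Section B was thus highest in the left-out egg more often than in the range as a whole. In eggs 10 and 18 this did not hold for most of the transcripts. Where section B was not the highest, section A most often was. It was highest in 104 of 257, 206 of 372 and 59 of 215 transcripts with eggs 10, 18 and 20 left out. Of all transcripts in the CPM range, 29.6%, 32.2% and 26.5% had section A highest in those eggs. In egg 18 the chosen transcripts thus had section A highest more often than section B, 206 against 125.

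The share in section B of the left-out egg had a median of 23.8% for egg 10, 24.3% for egg 18 and 24.4% for egg 20. These lie above the 19.9 to 20.1% of all transcripts in the range and below the 26.2 to 26.5% that the same transcripts had in the eggs used for the choice. The rule applied to the poles recurred more often, in 62.7 to 89.9% of transcripts for section A and 79.7 to 87.2% for section E. The background was also higher there, at 26.5 to 32.2% and 24.4 to 28.8% of the CPM range, against 14.5 to 17.9% for section B. For the inner sections the rule recurred in 21.9 to 56.7% for C and 27.8 to 42.9% for D, a range that holds the values of section B. Their backgrounds were 12.9 to 14.1% and 11.5 to 16.8%.

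**Figure D3:**
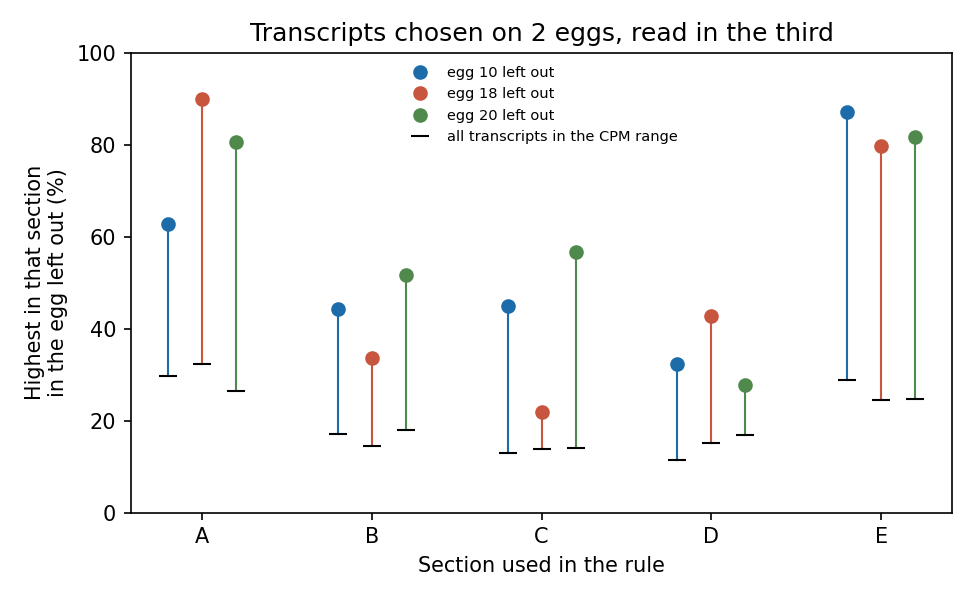
Transcripts chosen on 2 eggs and read in the egg left out. The y axis gives the % of them with the chosen section (x axis) highest in that egg, 1 point per egg left out, and black ticks give the same % for all transcripts in the CPM range; the section B points lie at 44.4%, 33.6% and 51.6%, below every point of section E.

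The levels on both sides of section B were compared with contrasts that leave section B out. The fit itself used all 15 libraries, so the section B libraries entered the estimate of the spread and the egg terms. With 1 section B library left out at a time, 65 to 66 members were called between the poles, against 70 with all libraries. The rule caps these sections below section B but does not set their order. The tests were edgeR's quasi-likelihood tests with the section and the egg as terms, run on 29102 transcripts that passed a filter on low counts, with Benjamini-Hochberg adjustment over all of them. All 110 members passed the filter, which their minimum of 5 CPM makes likely. A transcript is called when its adjusted p is under 0.05.

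Between the poles, 70 of 110 members were higher in section A than in section E and 0 were higher in E. Among all transcripts tested, 35.1% were called, 17.8% higher in A and 17.2% higher in E, and within the CPM range 23.2% were higher in A. Each of the 70 had the same direction in 3 of 3 eggs. Without a threshold, section E was the lower in 106 of the 110. At an unadjusted p under 0.05 there were 79 higher in A and 0 higher in E. No share of all transcripts is given beside the 106 or the 79, so both are read no further. DESeq2 called 57 members higher in A and 0 higher in E, against 15.6% and 16.4% of all tested. The median log2 change from A to E was -0.54 over the members and -0.03 over all transcripts tested. For most it was a modest difference, and 8 of the 70 were at least 2-fold.

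The largest difference was that of DN45112c0g2t1, whose 3 values in section E, 1.99 to 4.49 CPM, lay below its 3 in section A, 6.12 to 11.4 CPM. Its log2 change was -1.62 ± 0.29 (SE), with an adjusted p of 0.00031 by edgeR. Here and below, SE is the absolute log2 change divided by the square root of the test's F statistic. It was worked back from the test and is not a spread over the eggs. GG_40603c0g1t1 had nearly the same change with less spread between eggs. It stood at 22.7, 13.2 and 22.9 CPM in section A and at 24.5, 13.6 and 24.4 CPM in section B. The levels declined over sections C (16.4, 6.70 and 16.2 CPM) and D (9.49, 5.66 and 10.0 CPM) to 7.88, 3.85 and 7.65 CPM in section E. Eggs 10 and 20 nearly coincided and egg 18 ran lower throughout with the same order of sections. The log2 change from A to E was -1.61 ± 0.14 (SE), with an adjusted p of 1.08e-07 by edgeR.

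Between sections A and C, the neighbours of section B, few members were called. There were 9 higher in A and 0 higher in C, against 9.34% and 8.01% of all transcripts tested and 17.3% in either direction. Within the CPM range, 12.6% were higher in A. At 8.18% of the members the share higher in A is near or below these backgrounds, so it is no result about the set. At an unadjusted p under 0.05 there were 25 higher in A and 1 in C. No share of all transcripts at that level is given, so these counts are read no further. DESeq2 called 6 members (5.45%) higher in A and 0 higher in C, against 7.91% and 8.03% of all tested. The median log2 change from A to C was -0.20 over the members and -0.01 over all tested.

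GG_9999c0g1t1 had the largest of these differences. It stood at 7.79, 5.84 and 7.80 CPM in section A and at 10.2, 6.81 and 8.19 CPM in section B. Section C held 5.38, 3.42 and 2.85 CPM, section D 4.41, 2.13 and 3.85, and section E 4.97, 4.99 and 4.51. All 3 values of section C lay below all 3 of section A, and unlike most members its level in section E was above that in section D in each egg. The log2 change from A to C was -0.83 ± 0.22 (SE), with an adjusted p of 0.015 by edgeR. It was 0.0345 without egg 10 and missed the threshold without egg 18 (0.0566) or egg 20 (0.206). For GG_40603c0g1t1 the change was -0.60 ± 0.13 (SE), with an adjusted p of 0.00397 by edgeR, which became 0.0215, 0.0785 and 0.0522 without eggs 10, 18 and 20.

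Farther along the axis, 5 members were higher in section C than in section D and 0 were higher in D. Among all transcripts tested, 2.46% were called, 0.471% higher in C and 1.99% higher in D. Within the CPM range, 0.740% were higher in C and 3.89% were called in either direction. The members' 4.55% higher in C lies above both shares higher in C, but it is a count of 5. In either direction the members' share was also 4.55%, near that of the CPM range. DESeq2 called 7 members (6.36%) higher in C and 0 higher in D, against 0.722% and 2.21% of all tested. At an unadjusted p under 0.05, 28 members were higher in C and 0 higher in D. The 28 have no share of all transcripts beside them and are read no further. DN45112c0g2t1 led with a log2 change of -1.37 ± 0.29 (SE) and an adjusted p of 0.0139 by edgeR, which became 0.0673 without egg 10 and 0.373 without egg 20. The count of 5 moved to 3, 2 and 0 without eggs 10, 18 and 20. Of all tested, 0.316%, 0.168% and 0.0378% were then called higher in C.

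Between sections D and E, 0 members were called by edgeR and 0 by DESeq2. At an unadjusted p under 0.05, 14 were higher in D and 3 higher in E, again with no share of all transcripts beside them. Few transcripts were called between D and E at all by edgeR, 0.423% of those tested, with 0.412% higher in E and 0.0103% higher in D. The median log2 change from D to E was -0.17 over the members and 0.01 over all tested, and with the spike-in as scaling 0.07 and 0.23. The vegetal slope of the set was thus called between distant sections, while the single steps were mostly not called.

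**Figure D4:**
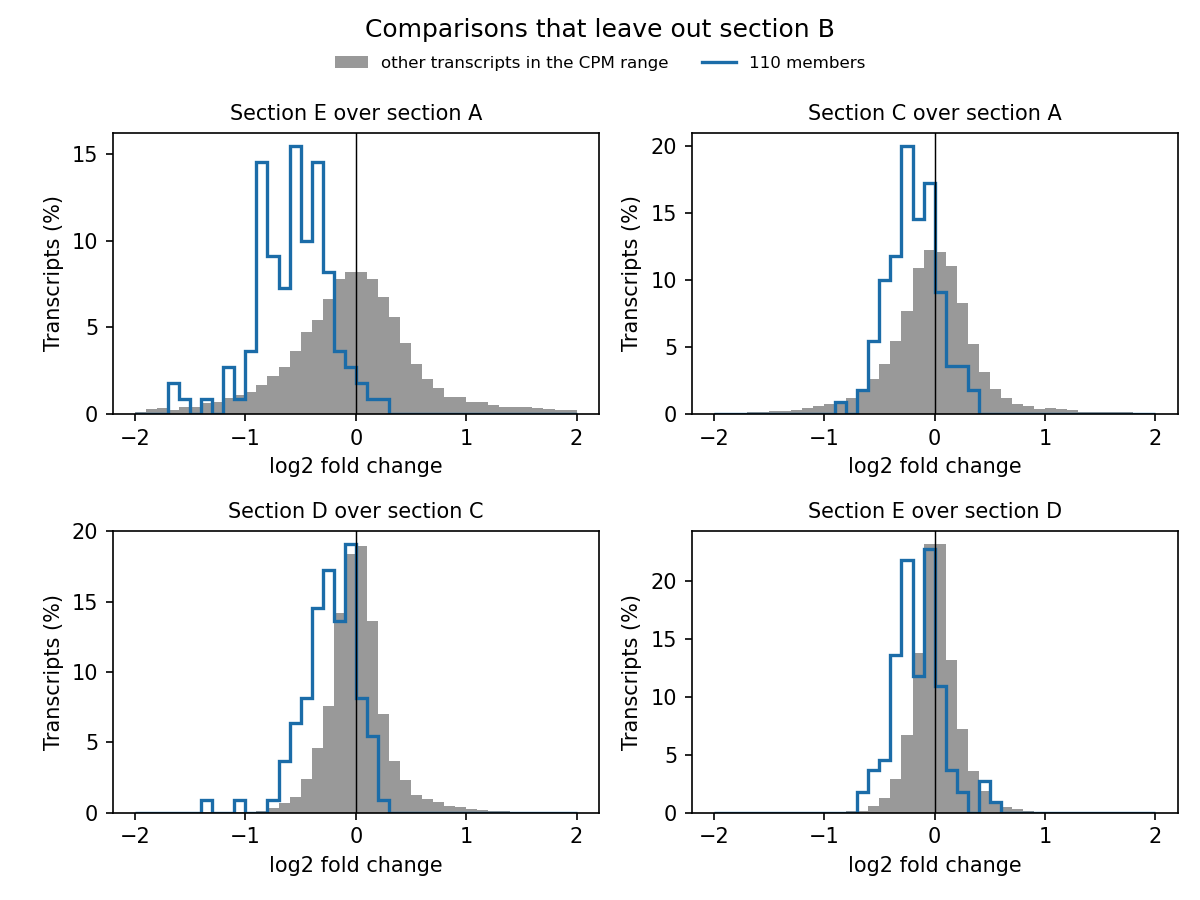
Distribution of the log2 fold change (x axis) in 4 comparisons without section B, as % of transcripts (y axis), for the 110 members (blue outline) and the other transcripts in the CPM range (grey). The members lie to the left of 0 for E over A, with a median of -0.54; 840, 485, 13 and 8 other transcripts lie beyond the plotted range of 2 in the panels E over A, C over A, D over C and E over D.

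These calls differed with the section next in rank by mean. Of the 85 members with section A second, 60 were called higher in A than in E and 9 higher in A than in C. Of the 18 with section C second, 10 were called higher in A than in E and 0 were called between A and C. Where section D or E was second, 0 were called in either. The second section was read from the same means and often changed between eggs. Where section A was second, the grouping itself set its mean above those of sections C and E. Where section C was second, it set the mean of C above that of A. The counts have no share of all transcripts beside them. These counts thus describe the grouping by mean and test nothing more.

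Egg 18 stood apart from the other eggs in the level of the members. Averaged over the 5 sections, 79 of 110 members (71.8%) were lowest in egg 18, 21 in egg 10 and 10 in egg 20, while 38.0% of the CPM range was lowest in egg 18. The level in egg 18 was 0.738 times the mean of the other eggs at the median of the members, against 0.998 over the range. The difference held along the whole axis, with egg 18 lowest for 77 members in section A, for 75 in section B, for 73 in C, for 70 in D and for 78 in section E. It was not specific to section B peaks, since 48.3% of the transcripts chosen with section A and 56.7% and 57.1% of those chosen with C and D were lowest in egg 18, against 29.6% for E. The share that chose the members is taken from means over eggs, in which an egg with higher levels weighs more, and the part this plays was not tested.

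In 33 members egg 18 was below 0.6 times the mean of the other eggs, against 5.39% of the CPM range. Of these 33, 26 were called higher in section A than in E, and of the other 77 members 44 were. The median log2 change from A to E was -0.76 in the former and -0.49 in the latter. In the CPM range, 34.7% of the 926 transcripts with such a low level in egg 18 were called higher in A, against 22.6% of the 16241 others. A low level in egg 18 and a decline toward the vegetal pole thus occurred side by side. A fit without egg 18 called 42 of the 110 members between the poles, all higher in A, where 11.2% of all transcripts tested were higher in A. Without egg 10 it was 54 members and 16.5% of all tested, and without egg 20 it was 50 members and 12%, again all higher in A, so the count fell with any egg left out.

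**Figure D5:**
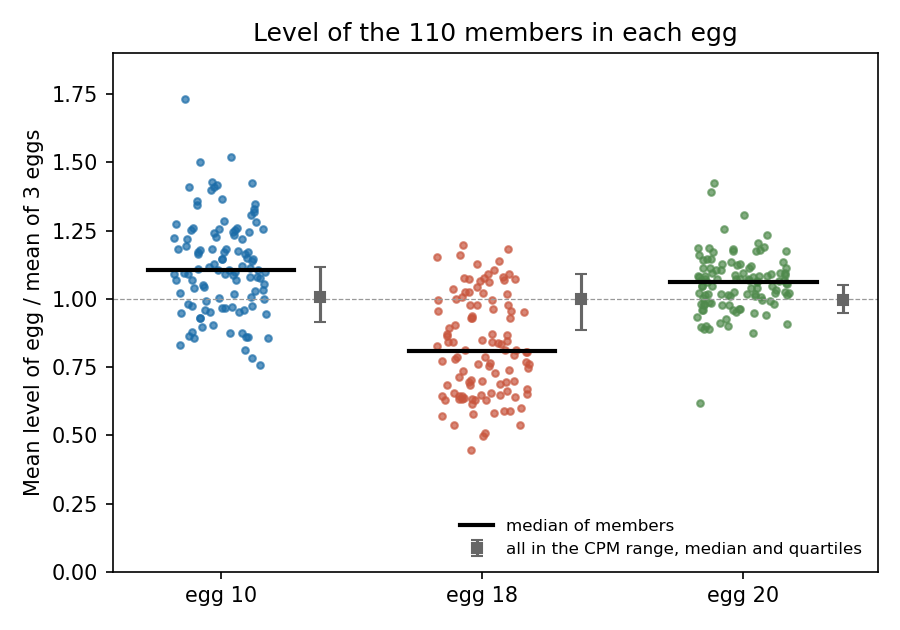
Mean level of each of the 110 members in an egg divided by its mean over 3 eggs (y axis, no unit), 1 point per member and egg. Black bars are the members' medians, and grey squares with bars are the median and quartiles of all transcripts in the CPM range; the members' median is lowest in egg 18.

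Other transcripts assembled in the same components varied in profile. In 26 members' components there were 33 transcripts outside the set, 20 of them in the CPM range. Section B had the highest mean in 8 of the 20, against 17.6% of the range. Section C had it in 5, section A in 4, section E in 2 and section D in 1. None, 0 of the 20, had section B highest in all 3 eggs, against 1.96% of the range. The share in section B of the 20 had a median of 22.0% and ran from 13.8 to 28.4%. It was above 20% in 15 of 20, against 50.4% of the range. Of the 20, 7 were of the same assembled gene as a member. Section B had the highest mean in 4 of these 7, and its share was above 20% in 4. Transcripts of a component can share reads, so their values and those of the member are not independent, and the labels do not say how the counting divided such reads.

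How many transcripts peak in section B depends on the scaling more than on any other choice. With DESeq2's size factors 98 transcripts met the rule, 93 of them members. With total counts alone it was 349, which included all 110 members. The spike-in as scaling gave 1395, which held 80 of the members, and the deposited factor gave 5421, which held all 110. Under that factor the median log2 change from A to E of all transcripts moved to -0.61, under the spike-in to -0.53 and under total counts to -0.11, and the members stood at -1.12, -1.05 and -0.62. Scaling divides a whole library by 1 number, so it moves members and other transcripts nearly alike. The distance between their medians is thus nearly fixed, and its recurrence under these scalings is no further support. Peaks in section B were fewest with TMM and with DESeq2's size factors. With total counts they were more but still fewer than those at either pole.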

How the data were processed

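The authors deposited 2 files per library, whole-number counts per assembled transcript and a normalized signal. The deposited signal equals the counts divided by 1 number per library, here called the deposited factor. Trimmomatic, kallisto, DESeq2 and STAR 2.5.2b are listed, with no roles, per the submitters' processing notes. The spike-in line, 0.0115 to 0.0235% of counts, stayed out of library sizes and tests.

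CPM used TMM sizes over all 42878 transcripts. Tests used edgeR 4.0.16 (R 4.3.3) on the counts of 29102 transcripts kept by filterByExpr, with section and egg as terms (8 residual degrees of freedom, common BCV, the biological coefficient of variation, 0.123). The egg is a block since the 5 segments come from 1 egg. Deviations from section means correlated at 0.264 to 0.743 within eggs and at -0.614 to 0.31 between eggs. No 2 libraries of the same section were duplicates (chi-square over its degrees of freedom 4.77 to 27.2). The script was tested on simulated data. DESeq2 1.42.0 was an alternative. Other alternatives were scalings, filters, no block, and leaving out eggs and single libraries. Single libraries, TMM on filtered transcripts and the rule for other sections under other scalings were added after seeing the data.

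The members, tests and naming rule were chosen with earlier results of these data known. The rule named the 2 members with the highest share, the most abundant, the 2 called members with the largest change for E against A and for C against A, and the 1 such member for D against C; none was called for E against D. Gene lists could not be applied without gene names.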

Additional observations from a re-analysis of the deposited data

Results flagged for a closer look

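Among values outside the transcript counts, 2 were lowest in section B by mean. The deposited factor, divided by the TMM library size, averaged 0.763 in section B, against 0.936 in A, 0.871 in C, 1.15 in D and 1.40 in E, with an SD over the 3 eggs of 0.00663 in B. The spike-in, with an SD of 10.5, averaged 119 TMM-scaled CPM in section B, against 139 in A, 147 in C, 229 in D and 200 in E. Both were lowest in section B by mean, so scaling by either raises the levels of that section on average over the eggs. The spike-in was not lowest there in every egg. In egg 18 it was 115 TMM-scaled CPM in section A and 124 in section B, and its SD in section A was 25.2. The part of the deposited factor and of the spike-in in the peak of the members was not tested.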

How the results depend on the processing

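The number of transcripts meeting the rule was 349 with total counts, 1395 with the spike-in and 5421 with the deposited factor as scaling, 337 with a share of at least 0.2, 10 with at least 0.3, 70 with at least 10 CPM, and 215 to 372 on 2 eggs. TMM on the filtered transcripts gave 100, with 93 of the members. The percentage with section B highest in the egg left out was 47.3 for egg 18 and 58.8 for egg 20 with total counts. All transcripts in range gave 26.1 and 28.0. With the spike-in it was 64.6, 17.3 and 93.5 for eggs 10, 18 and 20, where all in range gave 54.2, 14.1 and 79.2. With the deposited factor it was 82.3, 79.2 and 80.3, where all in range gave 62.6, 57.9 and 58.9.

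Members called between E and A numbered 107 with the deposited factor, where 62.3% of all transcripts tested were called. With an egg or a library left out they numbered 42 to 70, where 23.6 to 35.9% of all tested were called. For C against A it was 1 with the spike-in and 4 with the deposited factor (3 higher in A and 1 in C). Of all tested, 10.3% and 19.0% were called there. With libraries left out it was 2 to 12 (0 to 1 higher in C), where 10.0 to 18.5% of all tested were called. It was 5 without section A of egg 18 or 20 or section C of egg 10, and 4 without section C of egg 20. For D against C it was 87 with the spike-in and 75 with the deposited factor, where 43.1% and 35.0% of all tested were called. With libraries left out it was 0 to 8, where 0.529 to 3.53% of all tested were called. It was 1 without section C or D of egg 20 (1.16% and 1.45% of all tested). It was 8 without section A of egg 10 (3.53%). For E against D it was 39, all higher in D, with the deposited factor, against 12.3% of all tested. The paired design mattered. Without the replicate block for the egg, 21 members were called for E against A, 0 for C against A and 0 for D against C. The 21 were 19.1% of the members, near the 20.3% of all tested, though all 21 were higher in A, against 9.42%. For C against A and D against C, 8.42% and 0.636% of all tested were called. No log2 change of a named member reversed. The members' median from D to E turned from -0.17 to 0.07 with the spike-in. Members lowest in egg 18 numbered 73 to 79 over 4 other scalings, added after seeing the data. The causes were not tested. Depth limits the low members, at 41 counts or more in section B.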
